A study of Homo sapiens with 6 samples.

Results

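A set of 7 genes was followed that copy and separate chromosomes or answer to the tumour suppressor p53, in HepG2 cells treated with an siRNA against H19. The genes were taken by name from the 1998 genes of the authors' deposited table: AURKA, TOP2A, DNA2, CCNG1, CDKN1A, and every gene named CDC followed by a number, leaving out those named after CDC42, a GTPase of cell shape. The CDC rule gave CDC23 and CDC14A, which made 7 genes of 1998. HepG2 is a human liver cancer line grown in culture, and H19 is a long noncoding RNA of an imprinted locus. One group received a control siRNA (siCon, 3 libraries) and the other an siRNA against H19 (siH19, 3 libraries), both without any other agent, and RNA was taken 48 h later. Total RNA without ribosomal RNA was sequenced, and the comparison asks which transcripts respond to loss of H19 in liver cells.

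A dividing cell copies its DNA in S phase, and cyclins bound to cyclin-dependent kinases (CDKs) drive it on into mitosis. There, kinases such as Aurora A build the spindle, and the anaphase-promoting complex (APC/C) marks cyclins and securin for breakdown so that chromosomes part. The transcription factor p53 can halt this course, chiefly through CDKN1A, the CDK inhibitor p21, and it also drives CCNG1, whose product feeds back on p53.

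The table gives 1 combined value per group, so the values of single libraries were not analysed here and overlap between libraries cannot be described. Its standard errors (SE) and adjusted p-values are the authors' own. Nothing in the labels shows that libraries of one group were separate cultures, so these p-values measure only the spread between the libraries, which may be technical. Levels are normalized counts, not corrected for gene length. A mean count below is thus a scaled guide to the reads behind a value, not their number. It does not say which of 2 genes is expressed more. The mean normalized count per gene ran from 12.3 to 240657, and sequencing depth per library is unknown. H19 itself was not analysed here, so the labels were not checked against the targeted RNA. Of 8 hepatocyte markers 7 were in the authors' deposited table, all of them lower in siH19, and their summed normalized count was 483589 in siCon and 309327 in siH19. Of 19 markers of bile duct, stellate, endothelial and blood cells, 4 were present (ACTA2, LYVE1, CD68 and LYZ), also all lower, and the part of either marker set in the results below was not tested. In bulk RNA, fewer cells in a phase of the cell cycle and less RNA per cell cannot be told apart.

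TOP2A, AURKA, CDC23, CCNG1 and CDKN1A were lower after the H19 siRNA, and DNA2 and CDC14A were higher. That is 5 of 7 lower, where 55.3% of all genes in the authors' deposited table were lower and 44.7% higher. The table holds only genes with an adjusted p under 0.05, so all 7 passed by construction and a gene outside it is not known to be unchanged. The changes ran from a fall of CCNG1 to 50.3% of its control level to a rise of CDC14A to 153% of it, and none of the 7 reached 2-fold. The 5 that fell had mean normalized counts from 1054 to 12616 and the risers 173 and 354 in the authors' deposited table. Centred on the median change of all genes in the authors' deposited table, -0.27, the 7 kept their direction. They could not do otherwise, as the smallest fall was -0.40. The falls then read -0.35 for AURKA, -0.21 for TOP2A and -0.13 for both CDKN1A and CDC23. Only called genes enter that median, none with a change under 0.19 in size. It therefore does not measure a shift over all expressed genes.

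**Figure D1:**
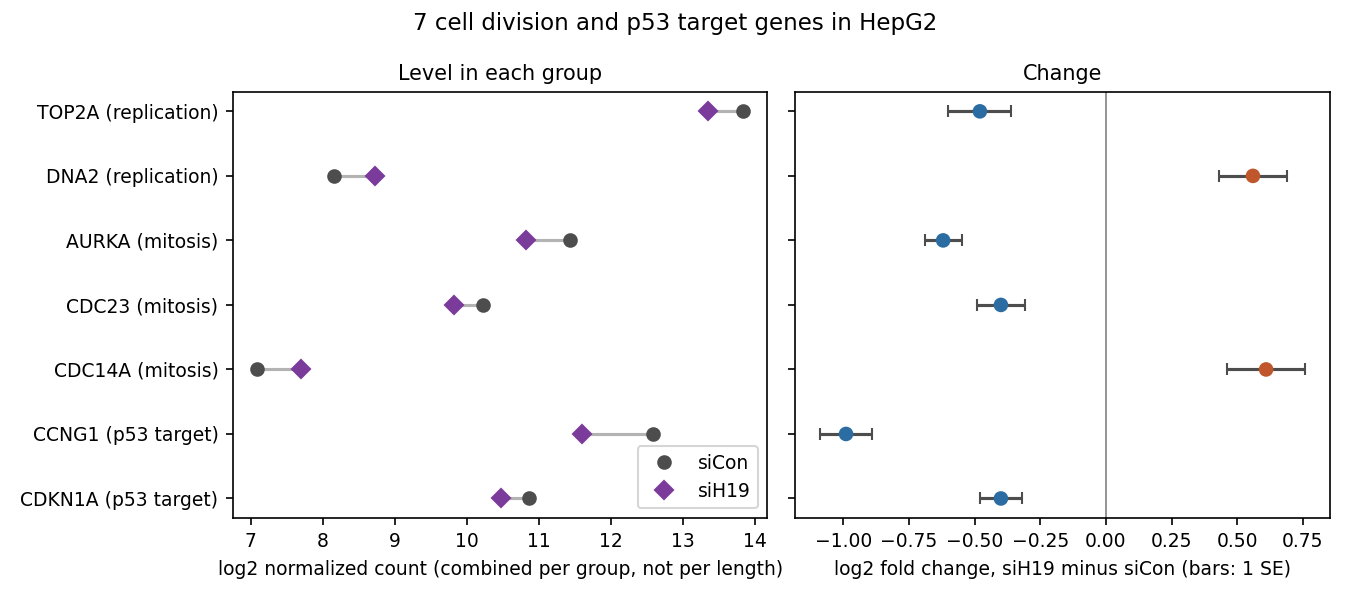
Level and change of the 7 genes. The left panel gives the combined log2 normalized count in siCon (circles) and siH19 (diamonds), the right panel the authors' log2 fold change, siH19 minus siCon, with bars of 1 SE: 5 genes lie left of 0, CCNG1 farthest at -0.99, and DNA2 and CDC14A lie right of it.

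Of the replication genes, TOP2A encodes topoisomerase II alpha, which passes one DNA duplex through another to untangle copied chromosomes. In the authors' deposited table its log2 count was 13.84 in siCon and 13.36 in siH19, normalized counts of 14664 and 10514. The change was -0.48 ± 0.12 (SE, log2; adjusted p = 7.93e-04), to 71.7% of control. Its SE was wide for its mean count: among the 71 genes of the authors' deposited table with a mean count within 2-fold of it, the median SE was 0.08 and 11.3% had an SE at least as large.

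DNA2, a nuclease and helicase that trims flaps of Okazaki fragments and resects broken ends, went the other way. The authors' deposited table gave 8.16 in siCon and 8.72 in siH19, normalized counts of 286 and 422. The rise was 0.56 ± 0.13 (SE, log2; adjusted p = 2.32e-04), to 147% of control, in the authors' deposited table. The pair of replication genes was thus divided in direction.

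Of the mitotic genes, AURKA, the Aurora A kinase of centrosomes and spindle poles, had the smallest SE of the 7. Its log2 count in the authors' deposited table was 11.44 in siCon and 10.82 in siH19, normalized counts of 2778 and 1808. The change of -0.62 ± 0.07 (SE, log2) left 65.1% of control, with an adjusted p written as 0 in the authors' deposited table, which means below its precision (the smallest value above 0 was 1e-06). Its SE was the smallest among the 518 genes with a mean count within 2-fold, or tied with it.

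CDC23 encodes a scaffold subunit of the APC/C. In the authors' deposited table it stood at 10.23 in siCon and 9.83 in siH19, normalized counts of 1201 and 910, a change of -0.40 ± 0.09 (SE, log2; adjusted p = 7.2e-05). CDC23 overlaps the mitotic kinesin gene KIF20A on the opposite strand in the GENCODE 29 annotation, and no source used here says whether counting used strand, so reads of the pair may be mixed. CDC14A, a phosphatase that removes phosphates placed by CDKs, rose from 7.09 to 7.70 in the authors' deposited table, normalized counts of 136 and 208. Its change of 0.61 ± 0.15 (SE, log2; adjusted p = 7.36e-04) came with the lowest mean count of the 7. The 3 rows left out by the rule as named after CDC42 were all higher in the authors' deposited table, at 0.32 for CDC42EP1, 0.34 for CDC42SE1 and 0.84 for CDC42BPG.

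Of the p53 targets, CCNG1, cyclin G1, which binds a phosphatase that acts on the p53 inhibitor MDM2, showed the largest change of the 7. The authors' deposited table gave 12.59 in siCon and 11.60 in siH19, normalized counts of 6165 and 3104. The change was -0.99 ± 0.10 (SE, log2), with an adjusted p written as 0 in the authors' deposited table. Ordered by fold change it ranked 49th from the lowest of the 1998 genes, and 95.6% had a smaller change in size. CDKN1A moved the same way but less: 10.87 in siCon and 10.47 in siH19 in the authors' deposited table, normalized counts of 1872 and 1418. Its change of -0.40 ± 0.08 (SE, log2; adjusted p = 2.6e-05) left 75.8% of control. Whether the falls of CCNG1 and CDKN1A differ was not tested, since both come from the same libraries, of which 1 combined value was at hand.

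**Figure D2:**
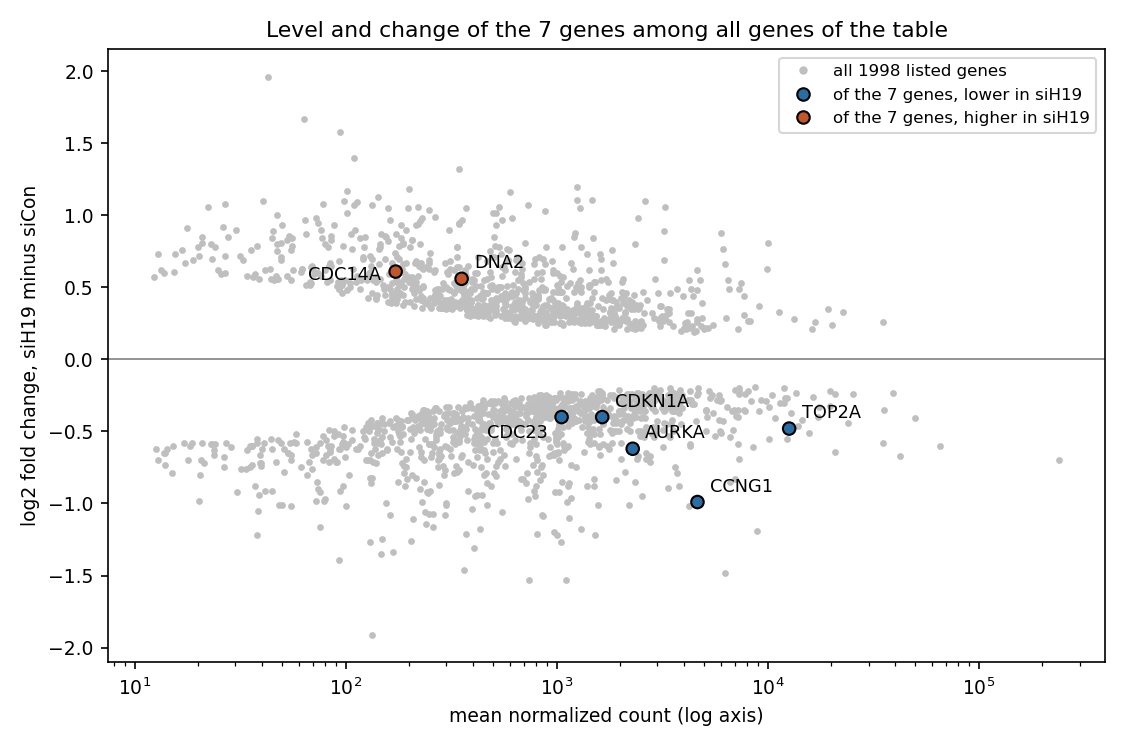
Each point is 1 of the 1998 genes of the authors' deposited table, with its mean normalized count on a log axis and its log2 fold change, siH19 minus siCon. The 7 genes are outlined; CCNG1 at -0.99 lies near the lower edge for its level, and TOP2A is far to the right with a mean count of 12616. The band around 0 is empty because only called genes are listed.

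The promoters of TOP2A, CDC23, CCNG1 and CDKN1A, the falling genes with a RefSeq promoter entry, are shown because many genes of the G2 phase and mitosis share promoter elements: CCAAT boxes bound by NF-Y, and the cell cycle homology region (CHR, TTTGAA), bound through LIN54 of the MuvB complex. Sequences are the 200 bases before the start site, from RefSeq on GRCh38.p14, which is not the build of the submitters' notes (hg19). They are written in the direction of transcription, and capitals mark the CCAAT box (ATTGG where it lies on the other strand), the CHR word (TTCAAA where it lies on the other strand) and the E2F-type word TTCCCGC or its variant TTGGCGC.
TOP2A, chr17:40417897-40418096, minus strand: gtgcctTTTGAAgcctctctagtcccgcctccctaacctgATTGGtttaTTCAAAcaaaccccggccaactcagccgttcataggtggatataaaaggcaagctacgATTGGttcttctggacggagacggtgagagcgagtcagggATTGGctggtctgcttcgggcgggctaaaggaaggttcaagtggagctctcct
CDC23, chr5:138213324-138213523, minus strand: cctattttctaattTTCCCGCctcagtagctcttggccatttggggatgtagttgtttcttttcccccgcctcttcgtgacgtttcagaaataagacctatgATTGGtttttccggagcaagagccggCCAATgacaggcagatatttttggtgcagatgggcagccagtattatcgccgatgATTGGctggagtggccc
CCNG1, chr5:163437371-163437570, plus strand: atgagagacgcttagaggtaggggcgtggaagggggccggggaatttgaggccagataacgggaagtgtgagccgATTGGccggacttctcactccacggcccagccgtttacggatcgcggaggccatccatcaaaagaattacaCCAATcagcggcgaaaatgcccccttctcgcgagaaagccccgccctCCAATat
CDKN1A, chr6:36678514-36678713, plus strand: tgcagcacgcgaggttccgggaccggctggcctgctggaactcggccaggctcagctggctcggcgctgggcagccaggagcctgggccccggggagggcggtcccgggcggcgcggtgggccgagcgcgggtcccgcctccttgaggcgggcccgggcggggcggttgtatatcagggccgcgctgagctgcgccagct

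TOP2A, CDC23 and CCNG1 each held 3 CCAAT boxes in the part shown, and CDKN1A held none of the words. In TOP2A the boxes began at positions -160, -93 and -53, in CDC23 at -98, -72 and -17, and in CCNG1 at -125, -54 and -7, counted so that -1 is the last base before the start site. TOP2A was the one member promoter with the CHR word, at -194 and -151, and CDC23 the one with an E2F-type word, at -186. Over 35116 RefSeq promoter windows of 300 bases (250 before to 50 after the start), 34.6% held a CCAAT box, 15.2% the CHR word, 6.55% TTCCCGC and 3.04% TTGGCGC. Promoter windows were found for 5 of the 7 genes, 7 windows in all. A CCAAT box was in 5 of these 7 windows, 1 of them at CDC14A, which rose. The windows of CCNG1 overlap and hold the same boxes, and counted by gene 4 of 5 held a CCAAT box. None of the 7 windows held the p53 half-site consensus on either strand, which 6.63% of all windows did, and this says only that those letters are not in these windows. A match is a description of letters and was not tied to the fold changes.

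H19 is known to bind let-7 microRNAs and to be the host of miR-675, so matches to their seeds were looked up in the 3' untranslated regions (UTRs). They are shown with the word CATCAAA, which like GCAGTAC was picked in an earlier look at these same data, and whether either word goes with the direction of change was not tested. The microRNA carries its seed (bases 2 to 8) in capitals, and the sites carry the matching 7 bases in capitals, with up to 11 bases on either side.
let-7a-5p: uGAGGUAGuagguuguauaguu
AURKA, let-7 seed match: gaacacgtgctCTACCTCcatttagggat
CDKN1A, let-7 seed match: gcaccctagttCTACCTCaggcagctcaa
DNA2, let-7 seed match: aatttttatttCTACCTCatgtgtttttt
TOP2A, CATCAAA: ttagtacaagaCATCAAAgtgaagtaaag
CDKN1A, CATCAAA: agtgggggcatCATCAAAaactttggagt

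The let-7 seed match stood in the main transcripts of 3 of the 7 genes, AURKA and CDKN1A, which fell, and DNA2, which rose. Of the 1880 genes of the table with a 3' UTR in the annotation, 11.7% held it. The seed matches of both arms of miR-675 were in none of the 7 and in 4.15% (5p) and 7.45% (3p) of the 1880. CATCAAA stood in TOP2A and CDKN1A, against 16.0% of the 1880. Which transcript is read matters for such words: CATCAAA was also found in 1 of 8 AURKA and 1 of 7 CDC14A transcripts, GCAGTAC in 1 of 7 CDC14A and 1 of 3 DNA2 transcripts, and the let-7 match in 7 of 8 for AURKA, 4 of 5 for CDKN1A and 2 of 3 for DNA2. CCNG1, the gene with the largest change, held none of these words in any of its 5 transcripts, nor did CDC23 in its 3.

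Around the 7 genes stood 50 others from 7 lists of replication, repair, mitosis, APC/C, CDK control and p53 genes. Of 449 symbols in these lists 57 were in the authors' deposited table, 37 higher and 20 lower. Their median log2 fold change was 0.32, beside -0.27 over all genes of the table. As no gene there changed by less than 0.19 in size, the sign of either median only follows the more frequent direction. Without the 7 genes, 35 of 50 were higher. Beside them 5 of the 7 were lower, a difference that was not tested, as the 7 were chosen with earlier results known. By list the picture varied. Counting genes that are not among the 7, DNA2 rose as did 7 of 8 replication genes, while CCNG1 and CDKN1A fell as did 6 of 8 cyclin and CDK genes. TOP2A went against these replication genes, and CDC14A against these cyclin and CDK genes. CCNG1 and CDKN1A fell where 11 of 15 other p53 targets rose. AURKA fell where 5 of 8 mitosis genes rose, and CDC23 where 3 of 4 APC/C genes rose.

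**Figure D3:**
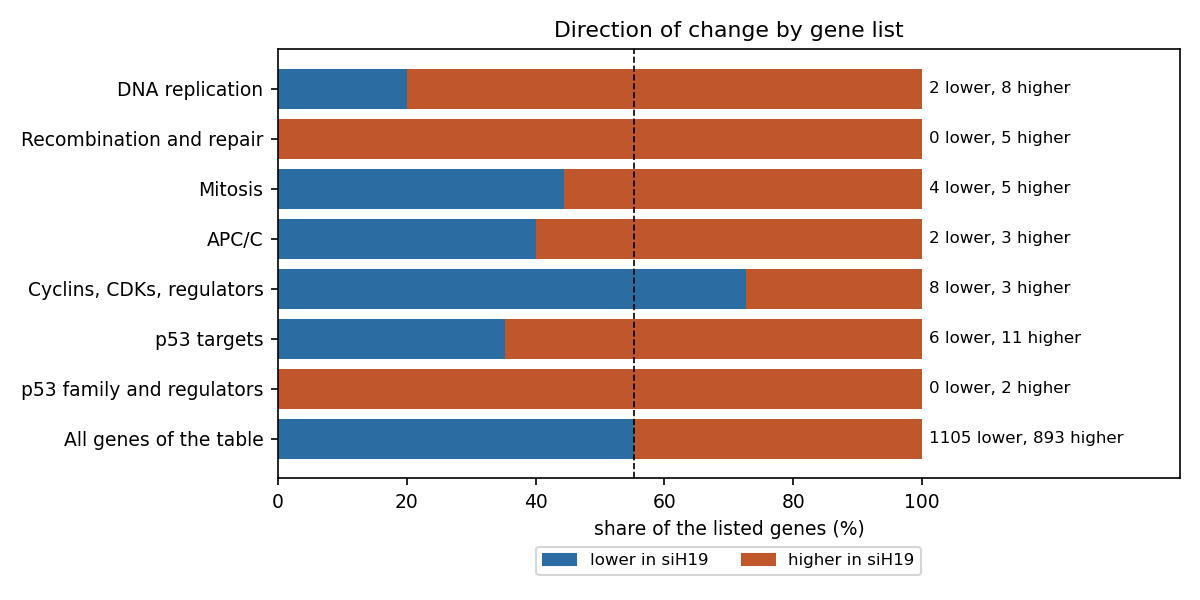
Share of the listed genes of each list that was lower (blue) or higher (orange) in siH19, with counts beside the bars and the share of lower genes over the whole table (55.3%) as a dashed line. The replication and repair lists lie on the higher side with 8 of 10 and 5 of 5, and the cyclin and CDK list on the lower side with 8 of 11.

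The replication list was mostly higher. Of 10 genes listed out of 78 symbols, 8 rose, against 44.7% of all genes in the authors' deposited table. DNA2 had the largest rise of them. The rest in the authors' deposited table were the polymerase delta subunit POLD1 (0.45 ± 0.17), DSCC1 of an alternative clamp loader (0.43 ± 0.13), the helicase cofactor GINS3 (0.40 ± 0.11), CHAF1B of the chromatin assembly factor (0.36 ± 0.09), the flap nuclease FEN1 (0.32 ± 0.08), the helicase subunit MCM3 (0.29 ± 0.08) and the primase subunit PRIM2 (0.29 ± 0.10). TOP2A fell together with RPA2, a subunit of the protein that coats single-stranded DNA (-0.46 ± 0.11), in the authors' deposited table. Adjusted p ran up to 0.0413, at POLD1, in the authors' deposited table. The SE of POLD1 was wide for its mean count. Among the 812 genes with a mean count within 2-fold, the median SE was 0.10 and 0.493% had an SE at least as large. POLD1, FEN1 and CHAF1B overlap other protein-coding genes in the annotation.

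All 5 listed genes of recombination and repair, out of 40 symbols, were higher, with small rises from 0.29 to 0.42. In the authors' deposited table they were the recombination protein RAD51C (0.42 ± 0.11), MRE11A and NBN of the complex that senses broken ends (0.39 ± 0.10 and 0.29 ± 0.09), and the helicases BLM (0.31 ± 0.11) and BRIP1 (0.29 ± 0.09). DNA2, known to work with BLM in end resection, moved in the same direction with a rise of 0.56. The list does not hold every repair gene: the authors' deposited table also has XRCC4 at -0.39, POLQ at -0.27 and ERCC4 at -0.43, named here after their values were seen. NBN overlaps another protein-coding gene.

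Mitotic genes were divided. Of 9 listed genes out of 110 symbols, 4 fell and 5 rose. The median of 0.25 in the authors' deposited table is simply the smallest of the 5 rises, at NEK2. CDC23 and CDC14A, placed with the mitotic genes above, are counted in the APC/C list and in the cyclin and CDK list instead. AURKA had the largest change. With it fell the kinetochore protein MIS12 (-0.51 ± 0.14), the condensin subunit SMC2 (-0.36 ± 0.10) and the Greatwall kinase MASTL (-0.32 ± 0.11) in the authors' deposited table. Higher by the authors' deposited table were the cohesin protector CDCA5 (0.38 ± 0.10), the spindle midzone protein PRC1 (0.37 ± 0.08), the checkpoint protein MAD2L1 (0.36 ± 0.08), the spindle motor KIF11 (0.36 ± 0.12) and the centrosome kinase NEK2 (0.25 ± 0.09). Kinetochore genes outside the list also went both ways in the authors' deposited table, with SKA1 at 0.68 and SKA2 at -0.52, named here after their values were seen. MIS12, MASTL and PRC1 overlap other protein-coding genes.

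The APC/C list was divided, its subunits included. The subunits CDC23 and ANAPC1 (-0.50 ± 0.08) fell in the authors' deposited table. The small subunit ANAPC15 (0.39 ± 0.12), the coactivator FZR1 (0.52 ± 0.14) and the ubiquitin-conjugating enzyme UBE2S (0.50 ± 0.15) were higher in the authors' deposited table. That is 2 of 5 listed genes lower, out of 19 symbols. FZR1, UBE2S and ANAPC15 overlap other protein-coding genes, and ANAPC1 does not.

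**Figure D4:**
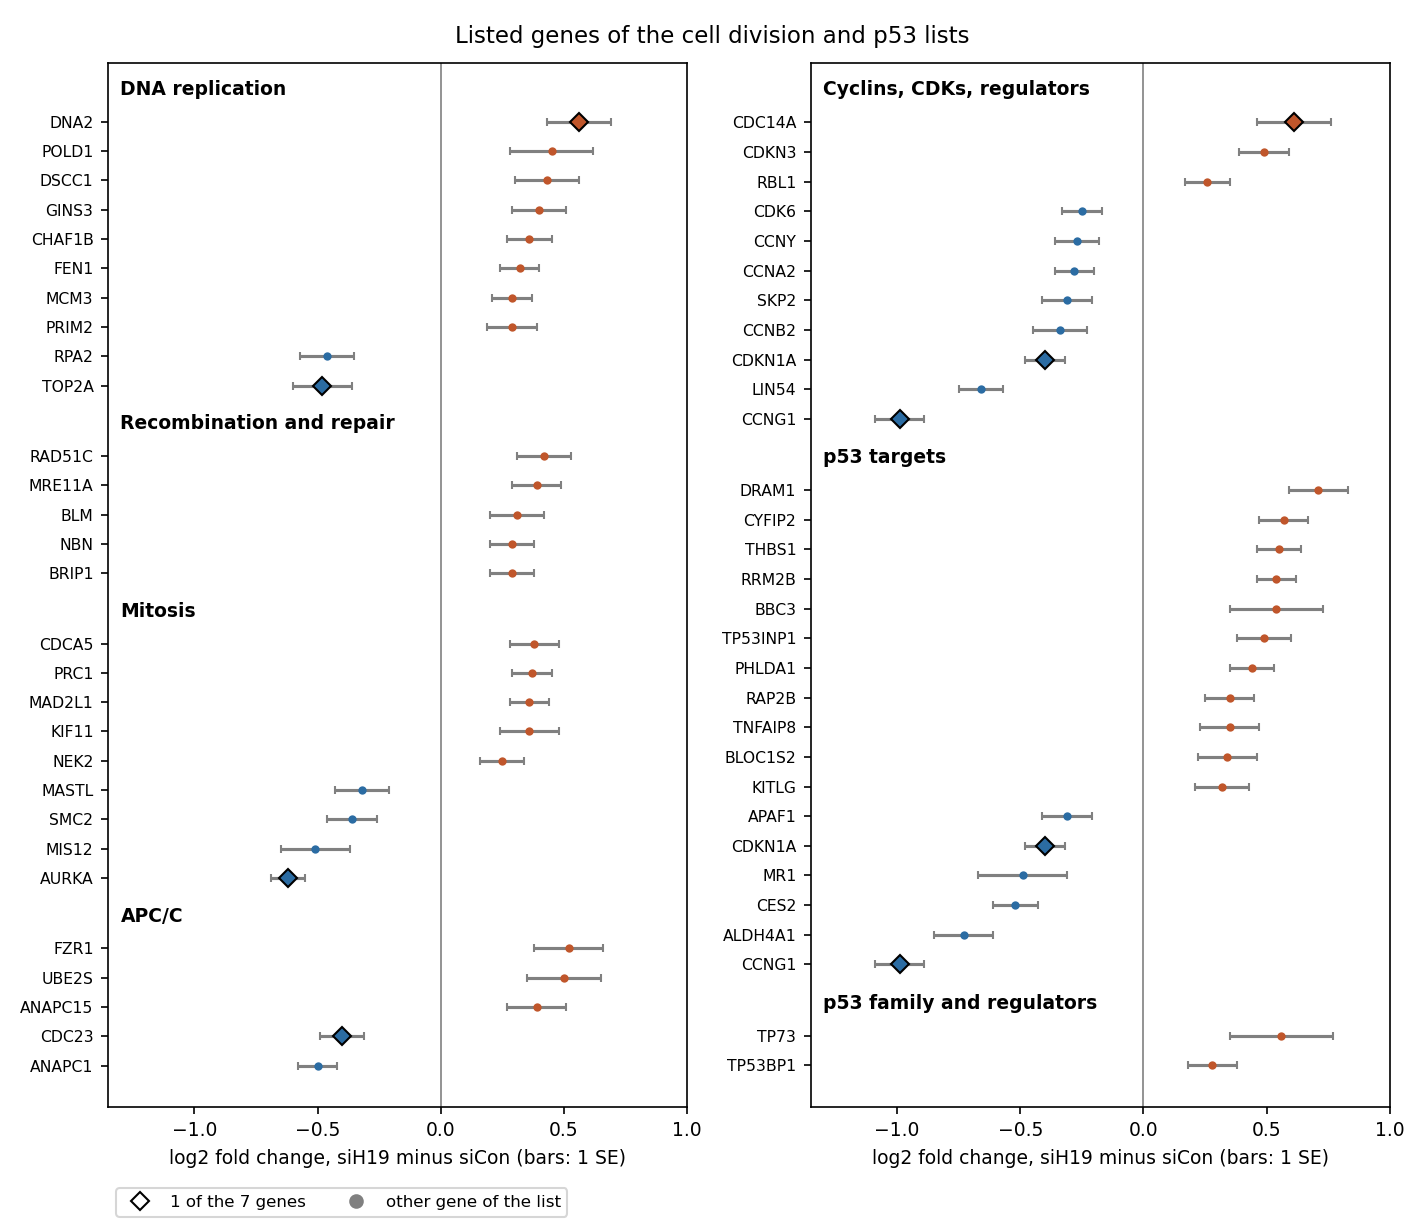
The authors' log2 fold change, siH19 minus siCon, with bars of 1 SE, for the 57 listed genes of the 7 lists; diamonds mark the 7 genes and circles the others. CDKN1A and CCNG1 are drawn under both the cyclin and the p53 target list, where CCNG1 at -0.99 is the lowest point.

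Cyclins, CDKs and their regulators leaned lower. Of 11 listed genes out of 90 symbols 8 fell, against 55.3% of all genes. Once fold changes were centred on the table's median of -0.27, a median of called genes only, 6 of 11 were below 0. All 4 listed cyclins fell: CCNG1, CCNB2 (-0.34 ± 0.11), CCNA2 (-0.28 ± 0.08) and the membrane-bound CCNY (-0.27 ± 0.09) in the authors' deposited table. Next to CCNG1, the authors' deposited table had its largest fall of this list at LIN54, the CHR-binding subunit of MuvB (-0.66 ± 0.09). CDKN1A fell, and so did SKP2, which marks CDK inhibitors for breakdown (-0.31 ± 0.10), and CDK6, a kinase of the G1 phase (-0.25 ± 0.08), in the authors' deposited table. The 3 that rose in the authors' deposited table were CDC14A, the CDK phosphatase CDKN3 (0.49 ± 0.10) and RBL1, the pocket protein p107 (0.26 ± 0.09). Both phosphatases of this list, CDC14A and CDKN3, were thus among its 3 risers. CCNA2 and LIN54 overlap other protein-coding genes.

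The p53 targets in the table leaned higher, unlike CCNG1 and CDKN1A, and the direction of targets outside it is not known here. Of 17 listed targets out of 90 symbols, 11 were higher, and of the 15 besides these 2 genes 11 were higher, against 44.7% of all genes in the authors' deposited table. Rising targets in the authors' deposited table were the autophagy gene DRAM1 (0.71 ± 0.12), the actin regulator CYFIP2 (0.57 ± 0.10), the matrix protein THBS1 (0.55 ± 0.09), the ribonucleotide reductase subunit RRM2B (0.54 ± 0.08), the cell death gene BBC3, known as PUMA (0.54 ± 0.19), TP53INP1 (0.49 ± 0.11) and PHLDA1 (0.44 ± 0.09). BBC3 had a mean count of 96.8 and an adjusted p of 0.0292 in the authors' deposited table. Falling with CCNG1 and CDKN1A in the authors' deposited table were the proline pathway enzyme ALDH4A1 (-0.73 ± 0.12), the carboxylesterase CES2 (-0.52 ± 0.09) and the antigen-presenting molecule MR1 (-0.49 ± 0.18). Both enzymes are known from liver, and the summed count of the hepatocyte markers was 64.0% of control. APOB alone gave 299044 of the 483589 in siCon, and single markers ran from 54.3% (TTR) to 79.6% (APOA1) of control. Whether the falls of the enzymes and of the markers are linked was not tested. The remaining 5 targets of the list changed by less than 0.4. CYFIP2, THBS1, TP53INP1 and ALDH4A1 overlap other protein-coding genes, CYFIP2 among them with ADAM19, which is also in the table.

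Of 26 other symbols for relatives and regulators of p53, 2 were in the authors' deposited table, the p53 relative TP73 (0.56 ± 0.21, at a mean count of 48.0 and an adjusted p of 0.0437) and TP53BP1, a DNA break protein (0.28 ± 0.10). Both were higher, while CDKN1A and CCNG1 were lower. TP73 and TP53BP1 each overlap another protein-coding gene.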

How the data were processed

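RNA of 6 HepG2 libraries (3 siCon, 3 siH19) was sequenced. The submitters' processing notes name hg19 as the build, and DESeq2 (1.0.0), Cufflinks (2.2.1) and STAR (2.5.0a) as tools, without roles; annotation and strand use in counting are not given in the sources used here. Per the file headers, the 1 deposited table gives a log2 count per group, a mean count (a normalized signal, deposited as such by the authors), a log2 fold change with its SE, and a q value. The authors deposited the q value as an adjusted p-value, at most 0.0498 in the table. The fold change equalled siH19 minus siCon within 0.01. No test was added; the design had foreseen one only for values per library. Members, and 12 lists (7 on cell division and p53), were chosen with earlier results of these data known. Some genes that would belong to the lists are not reported here and are not in the counts. The text names every member and, of each list, all listed genes or, above 12, the 12 largest changes; the plot of the lists names all. CDC42-named genes, a few repair and kinetochore genes and some overlap partners fell outside this rule and were named after their values were seen. Normalized counts are 2 to the power of the log2 count. 3' UTRs came from GENCODE 29, 1 transcript per gene (best APPRIS rank, then longest UTR), promoters and microRNAs from RefSeq (GRCh38.p14). Python 3.11.15, pandas 2.3.3 and scipy 1.17.1 were used, and the counting and motif code was tested on simulated data. Alternatives were an adjusted p of 0.01, a log2 change of at least 0.5, a level at or above the median, the group values, centring and, added after seeing the data, leaving out overlapping genes.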

Additional observations from a re-analysis of the deposited data

How the results depend on the processing

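The share of lower genes among the 7 was 71.4% and became 100% (5 of 5) at a mean level at or above the table's median, since DNA2 and CDC14A lie below it. With changes of at least 0.5 on the log2 scale, the share was 0% (0 of 1) for replication and 100% (2 of 2) for mitosis, as few genes remain. All other alternatives left the shares of the 7 genes and of the replication, mitosis, cyclin and p53 target lists within the exact 95% binomial interval of the main share. Such intervals are wide with so few genes, and they treat genes of the same libraries as independent. Each of them also holds 55.3%, the share of lower genes over the whole table. An adjusted p of 0.01 could not alter the 7, whose largest was 7.93e-04. Nor could the group values, which give the fold change within 0.01. Staying within the interval is thus not a test of robustness. Centring on the median of -0.27 kept the direction of all 7 genes but moved each by more than its SE. Neither could come out otherwise, since the smallest fall was -0.40 and the largest SE 0.15. CCNG1 went to -0.72, AURKA to -0.35, TOP2A to -0.21, CDKN1A and CDC23 to -0.13, DNA2 to 0.83 and CDC14A to 0.88. That median is of called genes only, so centring on it does not correct for a shift over all genes. Leaving out genes that overlap a protein-coding gene, an alternative chosen after seeing the data, removed CDC23 and left 4 of 6 lower. No paired analysis was possible because the table holds 1 combined value per group, and leaving out each replicate was not run for the same reason. Depth per library is unknown, so no counting interval was computed.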
